A study of Homo sapiens with 12 samples.

Results

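The 60 genes described here are long non-coding RNA genes whose symbol is LINC followed by a number. They were taken from 2097 LINC-named genes among the 57820 gene identifiers of the deposited tables by 1 rule, a mean of at least 50 expected counts over the 12 libraries (an expected count is an estimate of the reads belonging to a gene when some reads match several genes). They were thus chosen by their measured level, which is not a result here. Of the other LINC-named genes, 1394 were listed at 0 in every library and 643 had a mean above 0 and below 50. The members nearest the limit were LINC01447 with a mean of 52.1 counts and LINC01278 with 52.5, and the genes just outside it were LINC02846 with 49.7 and LINC02980 with 49.3. All 60 members passed the filter on low counts and were tested. In 48 of them the mean was at least 50 counts in each of the 4 groups, and in the other 12 at least 1 group had a mean under 50.

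LINC is the symbol root for long intergenic non-protein-coding RNAs, transcripts that are usually spliced, capped and polyadenylated but carry no long open reading frame. Most are expressed at lower levels and in fewer cell types than mRNAs, and many start near enhancers or share a divergent promoter with a coding gene. For most of them no function has been established, so the clauses on single genes below give a role only where one is well described. SWI/SNF chromatin remodelling complexes move nucleosomes at promoters and enhancers. SMARCB1 is a core subunit of the canonical BAF and PBAF forms of this complex and is lost in rhabdoid tumours, whereas BRD9 belongs to the non-canonical form, which contains no SMARCB1.

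RNA was sequenced from G401, an established line from a rhabdoid tumour whose genotype is given as SMARCB1(-/-), so every group lacks the endogenous gene. The cells carried a doxycycline-induced construct for either GFP or SMARCB1 and received DMSO, the vehicle, or dBRD9-A, a degrader of BRD9, for 24 h. The 4 groups of 3 libraries were GFP with DMSO, GFP with dBRD9-A, SMARCB1 with DMSO and SMARCB1 with dBRD9-A. The line is a single tumour model, the promoter of the construct, any clonal selection and the dose are not given in the sources used here, and the kit selects polyadenylated RNA, so transcripts without a poly(A) tail were not measured. Nothing in the labels says that replicates came from separate cultures, so p-values measure the spread between these samples only, which may be technical. Each library held 34.97 to 58.54 megacounts (1 megacount is 1e6 counts) over genes. SMARCB1 had 0 to 2 counts in the GFP libraries and 53033 to 110893 in the SMARCB1 libraries. BRD9 mRNA lay between 37.2 and 50.4 CPM (counts per 1e6 counts of the library) in all of them, which does not check loss of the protein. VIM, a mesenchymal marker present in rhabdoid cells, was at 1260 to 2400 CPM. Of 12 markers of other cell types, PTPRC and CD3E were at 0 in every library. The summed level of the 12 was 97.5 to 99.2 CPM in GFP cells with DMSO, 86.5 to 90 in GFP cells with dBRD9-A, 10.4 to 17.7 in SMARCB1 cells with DMSO and 8.35 to 9.11 in SMARCB1 cells with dBRD9-A. PDGFRA, also a receptor of mesenchymal cells, made up most of it (86.2 to 98.3 CPM in GFP cells and 7.73 to 10.4 in SMARCB1 cells), and its part in the differences below was not tested. GFAP had 234 counts in replicate 1 of SMARCB1 with DMSO and at most 1 in every other library.

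Promoter windows from RefSeq (GRCh38.p14, 250 bases before to 50 after a start) were given for 39 of the 60 members, 49 windows in all, and are printed for 4 of them in the direction of transcription. GRCh38 is not the build named in the submitters' processing notes, so these positions were not joined to the counts. The windows of LINC00472 (chr6:71420696-71420995, minus strand) and LINC01266 (chr3:591855-592154, plus strand) are shown because both genes had among the largest falls with SMARCB1 yet their starts differ in base content, and capitals mark CG dinucleotides.
LINC00472: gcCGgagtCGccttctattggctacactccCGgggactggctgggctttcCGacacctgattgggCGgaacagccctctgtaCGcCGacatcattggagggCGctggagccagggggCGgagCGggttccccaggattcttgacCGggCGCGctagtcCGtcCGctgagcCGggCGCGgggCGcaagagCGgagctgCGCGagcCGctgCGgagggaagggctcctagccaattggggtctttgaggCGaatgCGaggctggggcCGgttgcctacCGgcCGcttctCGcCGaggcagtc
LINC01266: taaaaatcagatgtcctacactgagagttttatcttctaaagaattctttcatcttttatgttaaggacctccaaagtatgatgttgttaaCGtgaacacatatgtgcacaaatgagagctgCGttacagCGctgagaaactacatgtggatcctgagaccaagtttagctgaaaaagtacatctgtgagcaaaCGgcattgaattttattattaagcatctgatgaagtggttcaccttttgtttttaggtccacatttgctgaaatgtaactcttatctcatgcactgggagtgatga
The first held 31 CG dinucleotides and the second 4, against a median of 15 over the members' windows and 14 over all 35116 windows of the table. The windows of LINC02709 (chr11:9759484-9759783, minus strand) and LINC01122 (chr2:58520503-58520802, plus strand) are shown next. Both genes were chosen because they fell with dBRD9-A in GFP cells and their windows hold TGANTCA, given in capitals. In this pattern N is any base, so it is looser than the site usually given for AP-1 factors. The middle base is C in LINC02709 and T in LINC01122.
LINC02709: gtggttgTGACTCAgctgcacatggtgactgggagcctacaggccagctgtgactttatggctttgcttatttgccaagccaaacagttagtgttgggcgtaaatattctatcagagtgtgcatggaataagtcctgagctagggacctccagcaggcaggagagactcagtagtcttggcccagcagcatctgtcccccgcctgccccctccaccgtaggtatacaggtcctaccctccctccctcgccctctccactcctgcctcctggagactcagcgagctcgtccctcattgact
LINC01122: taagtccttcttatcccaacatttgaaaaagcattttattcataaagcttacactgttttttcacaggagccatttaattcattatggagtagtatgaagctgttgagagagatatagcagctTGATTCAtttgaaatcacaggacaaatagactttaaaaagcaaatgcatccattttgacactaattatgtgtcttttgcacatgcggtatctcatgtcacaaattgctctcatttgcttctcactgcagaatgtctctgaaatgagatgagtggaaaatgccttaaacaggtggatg
The match began 243 bases before the start in LINC02709 and 127 before it in LINC01122. TGANTCA, which reads as the same pattern on both strands, was in 4 of the members' 49 windows (8.16%) and in 7.71% of all windows. The other members with it were LINC00963, which rose with dBRD9-A in GFP cells, and LINC00339, whose log2 fold change there was 0.06 ± 0.09 and was not called. CACGTG, the E-box bound by MYC and related factors and also its own reverse complement, was in 4 (8.16%) and in 7.26% of all. No window of a member held both motifs. These shares lie close to those of all promoters, and a match is a description of the letters only.

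Member RNAs were spread over a wide range of levels, and a single pair from chromosome 8 outweighed the rest. LINC01602 (ENSG00000205293.3) and LINC03018 (ENSG00000254139.1), which lie on the same strand near FAM110B, together held 58.4% of all member counts. Per kb of exon annotated in GENCODE 29, the mean level over the 12 libraries was 137 CPM per kb for LINC01602 and 81.8 for LINC03018. The next most abundant in CPM were LINC00662 (6.23 CPM per kb), LINC02987 (7.52), LINC00667 (3.63) and LINC00839 (8.07), and the order of these 4 differs between the CPM and the per-length scale. The lowest mean level was 1.11 CPM, of LINC02898. GENCODE 29 classes 44 members as lincRNA and 7 as processed transcripts, and it classes LINC02898 and LINC02693 as protein coding. In that annotation 35 members overlap another gene, 16 of them on the same strand. Whether the counting used strand is not given in the sources used here, so reads of overlapping genes may be mixed.

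**Figure D1:**
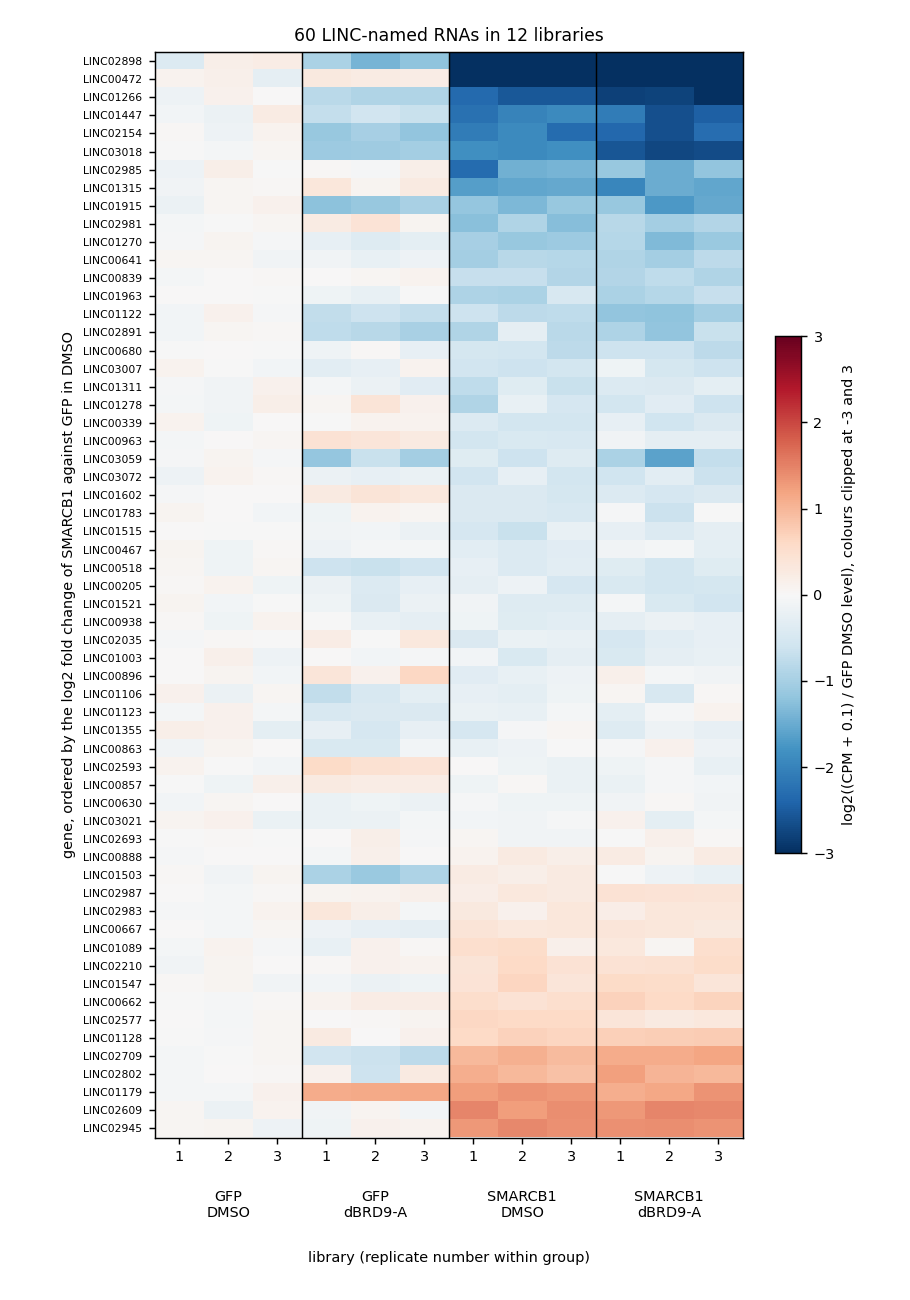
Level of each of the 60 LINC-named RNAs (rows, ordered by the log2 fold change of SMARCB1 against GFP in DMSO) in each of the 12 libraries (columns, grouped), as log2 of CPM plus 0.1 relative to the mean of the GFP DMSO libraries, with colours clipped at -3 and 3. The top rows are low in all 6 SMARCB1 libraries, the bottom rows are high in them, and LINC01179 is also high in the 3 GFP libraries with dBRD9-A.

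With SMARCB1 induced in DMSO, more LINC-named RNAs fell than rose. LINC00472 and LINC02898 dropped to almost no counts, LINC01266, LINC01447 and LINC02154 fell by more than 2 on the log2 scale, and LINC02945, LINC02609, LINC01179, LINC02802 and LINC02709 rose by at least 1 on that scale. By edgeR's quasi-likelihood test with Benjamini-Hochberg adjustment over all 15750 genes tested, 47 of 60 members (78.3%) had an adjusted p under 0.05, against 65% of all genes tested and 71.1% of the 12585 genes with a mean of at least 50 counts. Of the members 15 rose (25%) and 32 fell (53.3%), where 33.5% of all genes rose and 31.6% fell. The 486 other long non-coding genes with the same mean leaned the same way, with 61.1% called, 15.2% higher and 45.9% lower. The members' median log2 fold change was -0.31, against -0.0047 over all genes and -0.22 over those other long non-coding genes. In bulk RNA, fewer cells of a type and less RNA per cell cannot be told apart. Scaling the libraries to the ERCC spike-ins, synthetic RNAs that made up 0.963 to 1.3% of counts, gave 38 calls, 16 higher and 22 lower, where 59.8% of all genes were called, 43.4% higher and 16.4% lower. Under that scaling the median of all genes itself moved to 0.17 in this comparison, to -0.32 for SMARCB1 against GFP with dBRD9-A, to 0.36 for dBRD9-A in GFP cells, to -0.14 for dBRD9-A in SMARCB1 cells and to -0.49 for the interaction. How the spike-ins were added is not given in the sources used here, and all changes below are relative to the typical gene. Of the 48 members with every group mean at 50 counts or more, 38 were called. LINC02898, LINC00472, LINC01266, LINC01447, LINC02985, LINC02981 and LINC01278 had means under 50 counts in both SMARCB1 groups and over 50 in both GFP groups. Their SMARCB1 DMSO means were 0.667, 2, 33.7, 21.3, 24, 39.7 and 40.3 counts. LINC03007 had a mean of 73.7 counts in GFP with DMSO and under 50 in every other group. All these members passed the count limit through GFP groups, so the rule favours such falls. Its part in the lean to falls was not tested.

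LINC00472 (ENSG00000233237.2, chromosome 6), whose transcription unit contains MIR30A and MIR30C2 on the same strand, was nearly absent from the SMARCB1 libraries. It stood at 6.89, 7.08 and 5.25 CPM in the GFP DMSO libraries and at 0, 0.0504 and 0.0688 CPM in the SMARCB1 DMSO libraries. LINC02898 (ENSG00000205086.5, chromosome 2) stood at 2.29, 3.44 and 3.59 CPM and at 0, 0 and 0.0344 CPM in the same libraries. Neither gene's groups overlapped. Summed over 3 libraries, LINC00472 had 984 counts in GFP cells and 6 in SMARCB1 cells, 143-fold lower after scaling (95% interval 65.7 to 392). LINC02898 had 479 counts and 2, 209-fold lower (95% interval 57.7 to 1730), and both intervals cover counting error only. By edgeR's quasi-likelihood test the adjusted p was 2.45e-13 for LINC00472 and 9.23e-11 for LINC02898. Their fitted log2 fold changes of -7.09 and -7.48 depend on the small count added to the empty group.

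A further 4 members fell by more than 1.8 on the log2 scale. LINC01266 (chromosome 3) was at 4.12, 5.07 and 4.65 CPM in GFP cells and 0.837, 0.706 and 0.705 CPM in SMARCB1 cells with DMSO, a log2 fold change of -2.62 ± 0.14 (SE, n = 3 per group in every comparison). LINC01447 (chromosome 7) was at 2.09, 1.96 and 2.68 CPM against 0.393, 0.479 and 0.516 CPM (-2.26 ± 0.20). For LINC02154, an X-linked lincRNA, the values were 9.07, 8.02 and 9.63 CPM against 2.02, 2.29 and 1.70 CPM (-2.17 ± 0.12). In all 3 genes every SMARCB1 library lay well below every GFP library. LINC03018, the second most abundant member, was at 421, 402 and 442 CPM against 117, 112 and 117 CPM (-1.87 ± 0.04), and it had the smallest adjusted p of any member, 4.76e-17 by edgeR's quasi-likelihood test. Its neighbour LINC01602 fell less, from 351, 366 and 363 CPM to 266, 269 and 250 CPM (-0.46 ± 0.04, adjusted p = 2.61e-09 by edgeR). The rest of the 10 largest falls were LINC02985 (-1.79 ± 0.22), LINC01315 (-1.64 ± 0.12), LINC01915 (-1.24 ± 0.13) and LINC02981 (-1.23 ± 0.15), each without overlap between the groups. Their adjusted p ran from 2.38e-09 for LINC01315 to 1.66e-06 for LINC02981 by edgeR. LINC00839, another of the 6 most abundant members, fell by 0.76 on the log2 scale (SE 0.06). Among the 32 falls only LINC00938 had libraries of both groups that overlapped. The share without overlap among all called genes was not computed, so this count cannot be read as a trait of the members. Under spike-in scaling 10 of the smaller falls were not called.

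**Figure D2:**
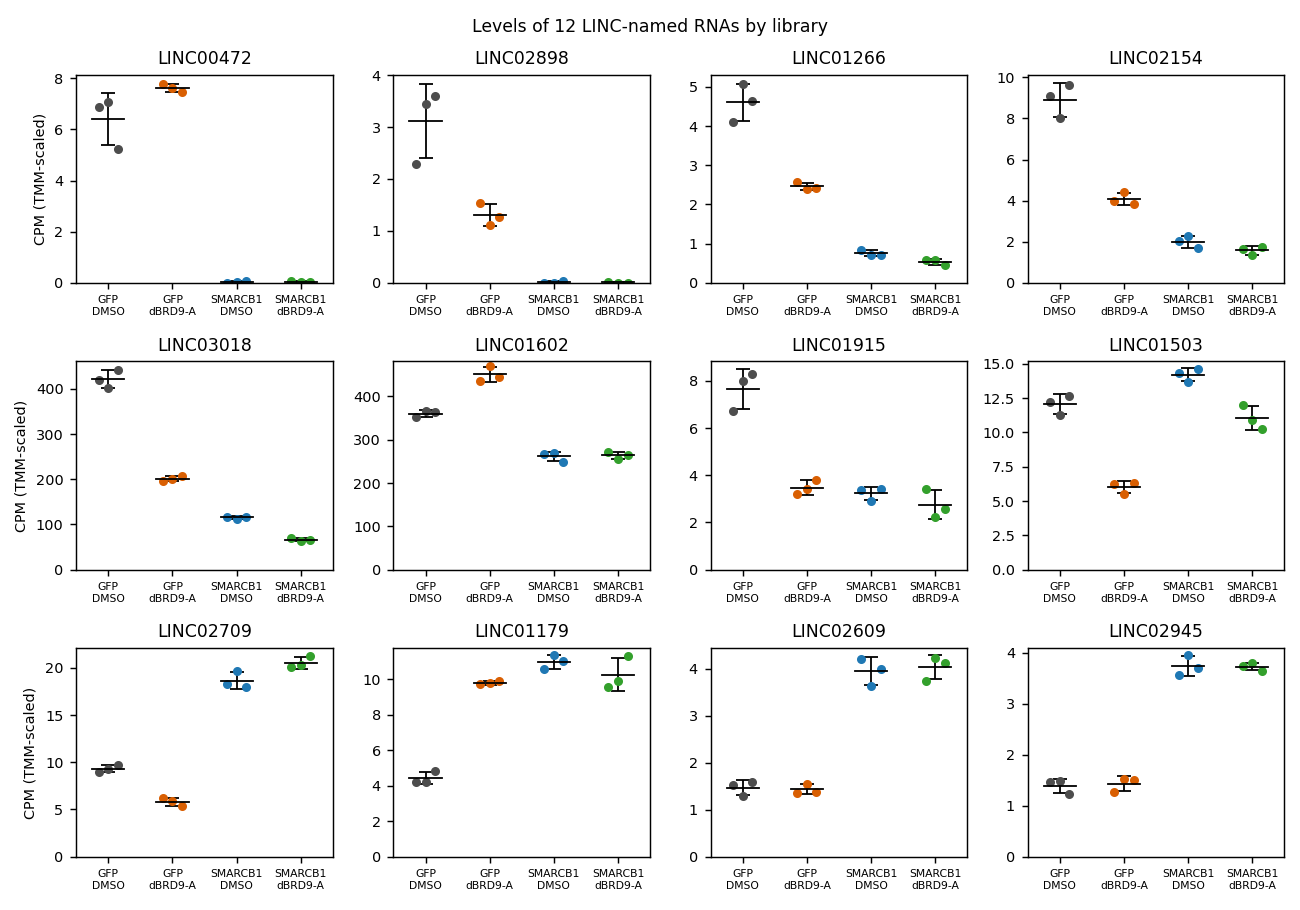
CPM of 12 LINC-named RNAs in each library (points), with the mean (line) and SD (bars) of the 3 libraries per group, on linear axes that start at 0. LINC00472 and LINC02898 lie at or near 0 in all SMARCB1 libraries, LINC03018 steps down from 421 ± 19.9 CPM in GFP cells with DMSO to 66.6 ± 3.75 CPM in SMARCB1 cells with dBRD9-A, and LINC01503 and LINC02709 are lowest in GFP cells with dBRD9-A.

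The rises were fewer and smaller. LINC02945 (ENSG00000249815.1, chromosome 4) went from 1.46, 1.48 and 1.23 CPM to 3.56, 3.96 and 3.71 CPM (log2 fold change 1.44 ± 0.12), and LINC02609 (chromosome 1) from 1.53, 1.28 and 1.59 CPM to 4.21, 3.63 and 4.01 CPM (1.42 ± 0.12). LINC01179 (chromosome 4) went from 4.22, 4.19 and 4.80 CPM to 10.6, 11.4 and 11.0 CPM (1.31 ± 0.08). All 3 were higher in each SMARCB1 library than in each GFP library, with an adjusted p of 7.9e-09 or less by edgeR. LINC02709 (chromosome 11), which overlaps SBF2-AS1 on the opposite strand, went from 8.95, 9.26 and 9.68 CPM to 18.3, 19.6 and 18.0 CPM (1.0 ± 0.06). LINC02802 rose by 1.01 ± 0.15, but 73.6% of its 31-base words occur in transcripts of other genes, so its counts are uncertain. The next were LINC01128 (0.65 ± 0.06), LINC02577 (0.61 ± 0.07), LINC00662 (0.49 ± 0.04), LINC01547 (0.48 ± 0.11) and LINC02210 (0.48 ± 0.07), with an adjusted p of 0.000755 or less by edgeR. LINC00662 and LINC02987 (0.26 ± 0.04) overlap each other on opposite strands on chromosome 19, and LINC02210 shares its strand with the LINC02210-CRHR1 readthrough, so these values may mix reads. LINC00667 rose by 0.35 ± 0.04, and 25.3% of its 31-base words occur in transcripts of other genes. With a limit of 1 on the absolute log2 fold change, 16 members were called, 5 higher and 11 lower, where 14.6% of all genes passed the same limit.

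While dBRD9-A was present, SMARCB1 moved largely the same members. In this comparison 39 of 60 members (65%) were called, 14 higher and 25 lower, against 63.3% of all genes tested (33% higher and 30.4% lower), 69.1% of genes with a mean of at least 50 counts and 56.8% of the other long non-coding genes, so the share called was close to the background. Under spike-in scaling 44 were called, 8 higher and 36 lower, where 71% of all genes were called, 13.5% higher and 57.4% lower. No library is shared with the DMSO comparison. Of the 15 members that rose in DMSO 12 also rose here (80% of the first list and 85.7% of the second), and of the 32 that fell 22 also fell (68.8% and 88%). None was called in opposite directions. The share of shared calls over all genes was not computed, so these shares say nothing particular to the members. The sign of the fold change was shared by 52 of 60 members (86.7%), the same share as over all genes (86.7%). Across the 60 members Pearson's r between the fold changes was 0.972 and Spearman's rho 0.891, a description across genes, which are not independent replicates, and LINC00472 and LINC02898 lie far from the others.

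Under the degrader LINC00472 stood at 7.76, 7.61 and 7.45 CPM when GFP was induced and at 0.0745, 0.0184 and 0.0233 CPM when SMARCB1 was. Its summed counts were 885 and 5, 210-fold lower after scaling (95% interval 89.4 to 647). LINC02898 had 153 counts and 1, a ratio of 181 with a counting interval of 32 to 7200. Both genes were again close to absent wherever SMARCB1 was induced. LINC01266 (-2.19 ± 0.16), LINC01447 (-2.0 ± 0.23) and LINC01315 (-1.94 ± 0.13) followed, with an adjusted p of 4.88e-07 or less by edgeR. The largest rise was that of LINC02709, from 6.17, 5.92 and 5.34 CPM to 20.1, 20.3 and 21.3 CPM (1.82 ± 0.06, adjusted p = 5.57e-14 by edgeR), without overlap. LINC02609 (1.5 ± 0.12), LINC02945 (1.39 ± 0.12), LINC02802 (1.14 ± 0.16) and LINC01503 (0.88 ± 0.08) came next. LINC01179, which had risen by 1.31 in DMSO, differed by 0.06 ± 0.07 here (adjusted p = 0.46 by edgeR). LINC00662 rose by 0.47 ± 0.04 and LINC02987 by 0.29 ± 0.04, but under spike-in scaling these values were 0.14 and -0.04 and neither was called.

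**Figure D3:**
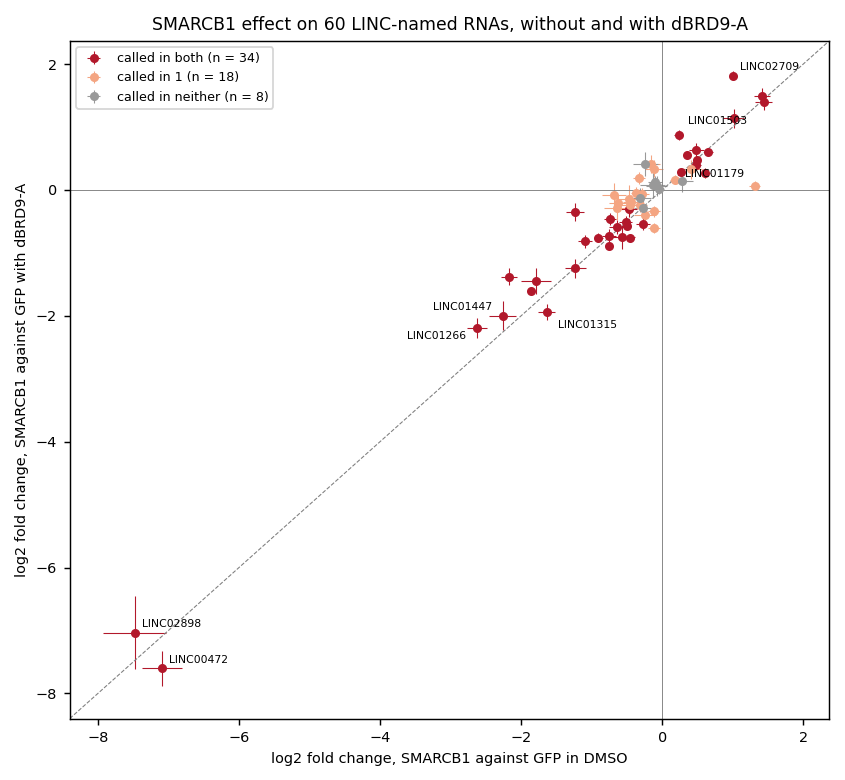
Log2 fold change of SMARCB1 against GFP in DMSO (horizontal) and with dBRD9-A (vertical) for the 60 LINC-named RNAs, with SE bars and a dashed line of equality. The 34 members called in both lie in the lower left and upper right, LINC02709 lies above the line and LINC01179 below it, at 1.31 and 0.06.

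dBRD9-A in GFP cells, where SMARCB1 is absent, lowered more members than it raised relative to the typical gene. LINC02898, LINC01915, LINC02154, LINC03018 and LINC01503 each fell by more than 1 on the log2 scale, and LINC01179 rose by 1.15. Of 60 members 20 (33.3%) were called, against 15.9% of all genes tested, 18.8% of genes with a mean of at least 50 counts and 17.1% of the other long non-coding genes. In the scaling used throughout 5 rose (8.33%) and 15 fell (25%), where 7.43% of all genes rose and 8.47% fell, but under spike-in scaling 38 were called, 27 higher and 11 lower, where 71.8% of all genes were called, 70.4% higher and 1.44% lower. Of the other long non-coding genes 4.12% rose and 13% fell. Past an absolute log2 fold change of 1 there were 6 members, 1 higher and 5 lower, where 0.908% of all genes passed. The members' median log2 fold change was -0.11 and that of the other long non-coding genes -0.09. The count limit can favour falls here too. LINC03059, which fell, had means of 117 counts in GFP with DMSO and 74 in SMARCB1 with DMSO. With dBRD9-A its means were 44 and 46.7 counts, so it passed the limit through the DMSO groups. The part of the limit in this lean to falls was not tested.

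LINC01915 (chromosome 18) was at 6.71, 8.0 and 8.29 CPM in GFP cells with DMSO and at 3.20, 3.42 and 3.81 CPM with dBRD9-A (log2 fold change -1.14 ± 0.13). LINC02154 was at 3.97, 4.42 and 3.84 CPM with dBRD9-A (-1.13 ± 0.11), and LINC03018 at 197, 201 and 207 CPM (-1.07 ± 0.04, adjusted p = 5.09e-12 by edgeR). In each of these the treated libraries lay far below the DMSO libraries given above. LINC01503 (chromosome 9), described elsewhere as a super-enhancer-driven RNA of squamous cell carcinomas, went from 12.3, 11.3 and 12.7 CPM to 6.22, 5.5 and 6.3 CPM (-1.01 ± 0.08). LINC02898 went to 1.54, 1.11 and 1.27 CPM (-1.24 ± 0.21) and LINC01266 to 2.57, 2.4 and 2.43 CPM (-0.90 ± 0.12). LINC03059 (-0.99 ± 0.20) and LINC02891 (-0.89 ± 0.18) completed the 8 largest falls, whose adjusted p was 0.00218 or less by edgeR. Those 8 kept their direction and an adjusted p under 0.05 in every alternative fit checked for single genes, spike-in scaling included. Of them LINC03059, LINC01266 and LINC02891 did not reach the limit of 1 on the log2 fold change. LINC01447 (-0.71 ± 0.17), LINC01122 (-0.70 ± 0.09), LINC02709 (-0.67 ± 0.07) and LINC00518 (-0.64 ± 0.09), the last a transcript measured in tests of pigmented skin lesions, were also lower. LINC01447 lost its call under spike-in scaling and without replicate 3 of GFP with DMSO. The other 3 falls were LINC01123, LINC01270 and LINC00667. LINC01123 (-0.48 ± 0.14) shares 95.2% of its 31-base words with other transcripts, mostly those of its near copy LINC01106. It lost its call under spike-in scaling, by DESeq2, without replicate 2 of GFP with DMSO and without any 1 replicate of GFP with dBRD9-A. LINC01270 (-0.31 ± 0.09) and LINC00667 (-0.23 ± 0.05) stood at 0.05 and 0.13 under spike-in scaling. The share of 31-base words found in transcripts of other genes was 42.9% for LINC01270, 25.3% for LINC00667 and 24.3% for LINC01122. LINC01270 also lost its call without any 1 of the 6 libraries compared.

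Of the 5 rises in GFP cells, LINC01179 was the largest. It went from 4.22, 4.19 and 4.80 CPM to 9.70, 9.77 and 9.91 CPM with dBRD9-A (log2 fold change 1.15 ± 0.08, adjusted p = 1.71e-08 by edgeR), close to its 10.6 to 11.4 CPM in SMARCB1 cells with DMSO. LINC02593 (chromosome 1) went from 9.0, 8.31 and 7.86 CPM to 12.5, 11.5 and 11.1 CPM (0.48 ± 0.08). LINC00963, reported as active in prostate cancer cells, went from 15.1, 16.0 and 16.4 CPM to 21.5, 20.4 and 19 CPM (0.36 ± 0.06). None of these groups overlapped. LINC01602 rose from 351, 366 and 363 CPM to 436, 470 and 446 CPM (0.32 ± 0.04), the opposite direction to LINC03018, which lies near the same coding gene. LINC00662 rose by 0.18 ± 0.04.

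In SMARCB1 cells dBRD9-A changed few members, and only LINC03018 and LINC01503 kept their call in every alternative fit checked for single genes. No member passed the limit of 1 on the log2 fold change here. There were 6 calls among 60 (10%), against 1.93% of all genes tested, 2.32% of genes with a mean of at least 50 counts and 3.09% of the other long non-coding genes. Of these 2 were higher and 4 lower, where 0.679% of all genes were higher and 1.25% lower. Under spike-in scaling 5 were called, all lower, where 5.54% of all genes were called, 0.248% higher and 5.3% lower. LINC03018 went from 117, 112 and 117 CPM to 70.8, 63.9 and 65.0 CPM (log2 fold change -0.80 ± 0.04, adjusted p = 3.06e-09 by edgeR), and LINC01503 from 14.4, 13.7 and 14.6 CPM to 12, 10.9 and 10.3 CPM (-0.37 ± 0.07, adjusted p = 0.00654 by edgeR). All treated libraries of both were below all DMSO libraries. LINC01122 went from 5.18, 4.61 and 4.68 CPM to 3.45, 3.39 and 3.88 CPM (-0.43 ± 0.09). LINC02577 (-0.30 ± 0.07), LINC00963 (0.28 ± 0.06) and LINC00662 (0.16 ± 0.04) completed the calls. These 4 had an adjusted p between 0.0214 and 0.041 by edgeR and lost the call in several alternatives. With only the SMARCB1 libraries fitted, 2 members were called, and the count was also 2 without replicate 1 or 3 of SMARCB1 with DMSO or replicate 1 of SMARCB1 with dBRD9-A, and 3 without replicate 2 of SMARCB1 with DMSO. Of the 5 members higher in GFP cells 2 were higher here (40% of the first list, 100% of the second), and of the 15 lower 3 were lower (20% and 75%). No library is shared between these comparisons, and the share of shared calls over all genes was not computed here either. The sign was shared by 38 of 60 members (63.3%), close to the 59.4% over all genes. The level of SMARCB1 itself was 1810 to 1910 CPM in SMARCB1 cells with DMSO and 1280 to 1330 CPM with dBRD9-A, and the part of this difference in the changes with dBRD9-A in SMARCB1 cells and in the interaction was not tested.

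**Figure D4:**
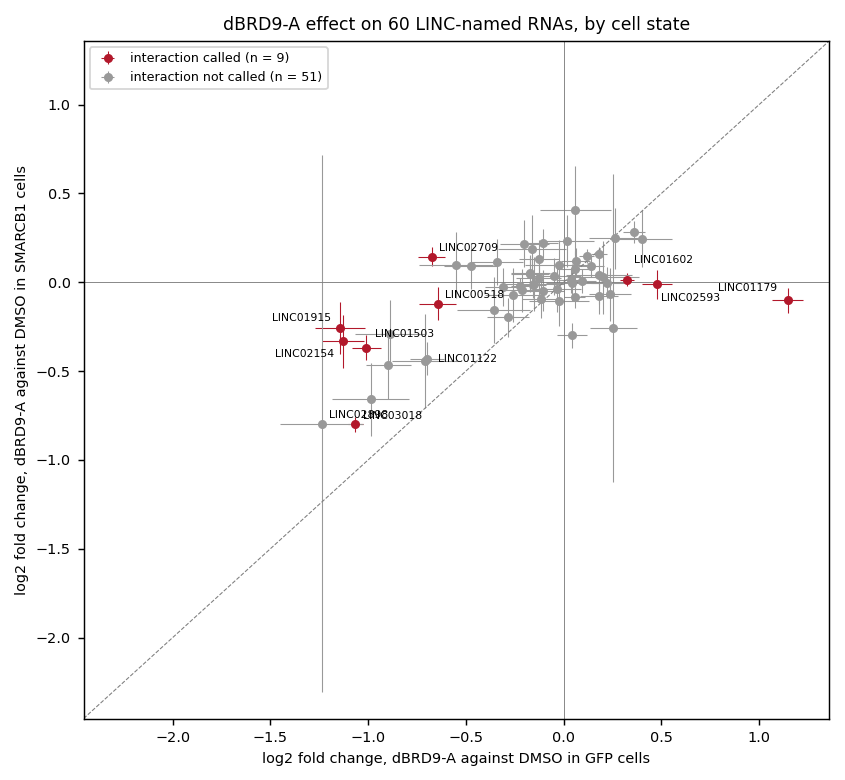
Log2 fold change of dBRD9-A against DMSO in GFP cells (horizontal) and in SMARCB1 cells (vertical) for the 60 LINC-named RNAs, with SE bars and a dashed line of equality. The 9 members whose effects differed by the interaction test are in red, with LINC01179 at 1.15 and -0.10 and LINC02709 at -0.67 and 0.14. The long bars belong to LINC02898 and LINC00472, which had almost no counts in SMARCB1 cells.

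The interaction term, the effect of dBRD9-A in SMARCB1 cells minus that in GFP cells, was called for 9 of 60 members (15%), against 3.8% of all genes tested (2.15% positive and 1.65% negative), 4.66% of genes with a mean of at least 50 counts and 2.88% of the other long non-coding genes. It was positive in 6 and negative in 3, but under spike-in scaling 29 were called, 1 positive and 28 negative, where 71.6% of all genes were called, 0.419% positive and 71.1% negative. LINC01179 had the largest interaction, -1.25 ± 0.11 (adjusted p = 1.85e-06 by edgeR). It rose with dBRD9-A in GFP cells but stood at 10.6, 11.4 and 11.0 CPM without and 9.54, 9.90 and 11.3 CPM with dBRD9-A in SMARCB1 cells, where the groups overlapped. LINC02709 had an interaction of 0.82 ± 0.09 (adjusted p = 2.17e-05 by edgeR), with a fall of 0.67 in GFP cells and a difference of 0.14 ± 0.05 in SMARCB1 cells (adjusted p = 0.25 by edgeR). LINC01503, at 0.64 ± 0.10, fell in both, by 1.01 and 0.37. LINC01915 (0.89 ± 0.19) and LINC02154 (0.80 ± 0.18) fell in GFP cells, whereas in SMARCB1 cells they differed by -0.26 ± 0.14 and -0.33 ± 0.15. LINC00518 (0.52 ± 0.13), LINC02593 (-0.49 ± 0.11), LINC01602 (-0.31 ± 0.05) and LINC03018 (0.27 ± 0.06) had smaller terms, with an adjusted p of 0.0338 or less by edgeR. LINC03018 reversed to -0.23 under spike-in scaling (adjusted p = 0.0416 by edgeR), and there LINC01915, LINC02154, LINC01503 and LINC00518 were positive but not called. LINC01179, LINC02709 and LINC01602 kept their direction and an adjusted p under 0.05 in every alternative fit checked for single genes. Of all members only LINC01179 passed the limit of 1 on the log2 scale. LINC00518 lost its call without 9 of the 12 libraries in turn and by DESeq2, LINC02154 without 6 and LINC02593 without 3.

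The coding genes nearest to the members did not follow a single direction. Nearest means the smallest distance between transcription starts in GENCODE 29 on GRCh38, whose median was 88.6 kb, with 6 members within 1000 bases. For 46 members that gene was tested (43 different genes). With SMARCB1 in DMSO both partners were called in 29 cases, in the same direction in 22 and in opposite directions in 7. Of the 46 neighbours 35 were called (76.1%), where 65% of all genes tested were. With dBRD9-A in GFP cells both partners were called in 9 cases, 5 in the same and 4 in opposite directions, and 34.8% of the neighbours were called against 15.9% of all genes. For SMARCB1 with dBRD9-A the same and opposite directions numbered 15 and 5, and for the interaction 2 and 2. For dBRD9-A in SMARCB1 cells no pair was called in both partners. The share of same-direction pairs among all neighbouring genes was not computed, so whether these counts differ from it was not tested. For SMARCB1 in DMSO Pearson's r between the partners' fold changes was 0.315 and Spearman's rho 0.485 over 46 pairs. Pearson's r was 0.243 for SMARCB1 with dBRD9-A and 0.195 for dBRD9-A in GFP cells. It was -0.0334 for dBRD9-A in SMARCB1 cells and 0.192 for the interaction. These are descriptions across genes in which SAMD11, FAM110B and UQCRFS1 each count for 2 members.

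LINC01266 lies 340 kb from CHL1, a neural cell adhesion molecule of the L1 family. CHL1 went from 25.0, 24.3 and 24.1 CPM in GFP cells to 0.236, 0.403 and 0.344 CPM in SMARCB1 cells with DMSO (log2 fold change -6.20 ± 0.11), so both partners fell. PKDCC, a secreted kinase gene whose start is 91.2 kb from that of LINC02898 on the other strand, went from 99.5, 103 and 99.98 CPM to 17.4, 16.0 and 17.4 CPM (-2.57 ± 0.04). With dBRD9-A in GFP cells LINC02898 fell while PKDCC rose by 0.21 ± 0.03. OGFRL1, 132 kb from LINC00472, went the other way from its partner, from 126, 133 and 129 CPM to 542, 550 and 538 CPM (2.07 ± 0.03). POFUT2, an O-fucosyltransferase gene that starts 152 bases from LINC00205 on the other strand, rose from 20.6, 21.2 and 20.9 CPM to 43.2, 43.7 and 44.4 CPM (1.07 ± 0.03), while LINC00205 stood at -0.32 ± 0.11, a call that was lost under spike-in scaling. PIK3CG, a catalytic subunit of PI3-kinase 90.3 kb from LINC02577, was at 0, 0.0485 and 0.0346 CPM in GFP cells and 1.47, 1.66 and 1.72 CPM in SMARCB1 cells. FAM241A, 72.7 kb from LINC02945, rose with it (2.12 ± 0.15). FAM110B, nearest to both LINC01602 and LINC03018, fell by 0.31 ± 0.03, less than either. The adjusted p of each call named here was 0.0137 or less by edgeR.

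**Figure D5:**
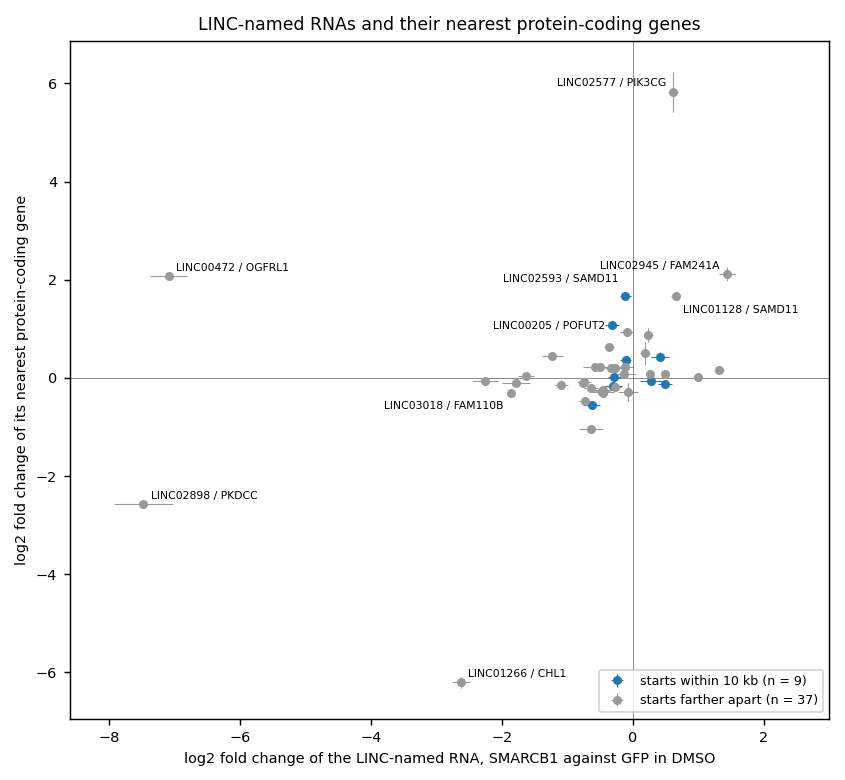
Log2 fold change with SMARCB1 in DMSO of each LINC-named RNA (horizontal) and of its nearest protein-coding gene (vertical), with SE bars, for the 46 members whose neighbour was tested. The 9 pairs that start within 10 kb are in blue, and LINC01266 with CHL1 and LINC00472 with OGFRL1 lie below and above 0 on the vertical axis.

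Summed over all 60 members, the level was 1176 ± 24.5 CPM in GFP cells with DMSO, 1031 ± 18.2 with dBRD9-A, 752.6 ± 10.7 in SMARCB1 cells with DMSO and 714.6 ± 17.1 with dBRD9-A (SD, n = 3). Without LINC01602 and LINC03018 the sums were 394.6 ± 4.2, 379.1 ± 2.15, 375.5 ± 2.8 and 383.9 ± 5.45 CPM, so almost all of the difference in summed level lay in those genes. The 8 members called in no comparison were LINC00630, LINC01003, LINC01106, LINC01355, LINC01521, LINC02693, LINC02983 and LINC03021. Their log2 fold changes with SMARCB1 in DMSO ran from -0.31 for LINC01521 to 0.28 for LINC02983. LINC01003 lies 27.8 kb from KMT2C, a histone methyltransferase gene, and LINC01521 starts 0.545 kb from PATZ1, a zinc finger factor gene. LINC00938, at a log2 fold change of -0.28 ± 0.10 with SMARCB1 in DMSO (a call lost under spike-in scaling), starts 1.89 kb from ARID2, a subunit gene of PBAF whose log2 fold change was 0.01 ± 0.04.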

How the data were processed

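The authors deposited 3 tables of RSEM expected counts per gene for the 12 libraries, made with the TruSeq Stranded mRNA kit per the labels' protocols. The submitters' processing notes name STAR, RSEM 1.3.1, DESeq2 and the builds GRCh37 and hg19. The annotation, the strand setting and the order of steps are not given in the sources used here. The tables repeat 6 columns with identical values, each used once. Expected counts were rounded to whole numbers, genes were filtered with filterByExpr (minimum count 10), leaving 15750, and libraries were scaled by TMM (factors 0.977 to 1.02). edgeR 4.0.16 in R 4.3.3 fitted all 12 libraries with 1 coefficient per group. Its quasi-likelihood test gave p-values, adjusted by Benjamini-Hochberg over all genes, and an SE equals the absolute log2 fold change divided by the square root of F. No outcome of a test of the fit on simulated data is reported here. CPM are TMM-scaled.

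Symbols came from a gene name table, which gave 51996 of 57820 identifiers a symbol. GENCODE 29 (GRCh38) gave types, overlaps and neighbours, and lists all 60 members, 43 under the same LINC name. Members and lists were chosen with earlier results of these data known. Named with values are the largest changes among called members whose groups do not overlap (10 rises and 10 falls for SMARCB1 in DMSO, 8 and 8 for dBRD9-A in GFP cells, 5 and 5 elsewhere), the 6 most abundant members, those at the count limit, SMARCB1, BRD9 and the nearest coding genes. The other members called with dBRD9-A or in the interaction, the members called in no comparison, and LINC00938 with ARID2 were named after their values were seen. Alternatives were DESeq2 1.42.0, spike-in scaling, no filter, a log2 limit of 1, only the groups compared, the replicate number as a block, each library left out, mean limits of 20 and 100, members without overlap and, chosen after seeing the data, GENCODE 29 names. For single genes the fits checked were DESeq2, spike-in scaling, only the groups compared, the replicate block and each library left out.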

Additional observations from a re-analysis of the deposited data

Results flagged for a closer look

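The 9 members below drew attention because the change with dBRD9-A differed between GFP and SMARCB1 cells by the interaction test of edgeR's quasi-likelihood fit (9 of 60 members, against 3.8% of all genes tested). The difference, as the log2 change in SMARCB1 cells minus that in GFP cells, was -1.25 for LINC01179, -0.49 for LINC02593 and -0.31 for LINC01602. It was 0.27 for LINC03018, 0.52 for LINC00518, 0.64 for LINC01503, 0.80 for LINC02154, 0.82 for LINC02709 and 0.89 for LINC01915. LINC01179, LINC02593 and LINC01602 rose with dBRD9-A in GFP cells, and the other 6 fell there. Only LINC03018 and LINC01503 were called in SMARCB1 cells too, both lower.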

How the results depend on the processing

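Of 75 single-gene values checked under 15 or 16 alternative fits each, 59 kept direction and call in all, including all 24 for SMARCB1 against GFP in DMSO. Those fits did not include the limit on the log2 fold change or the fit without the filter on low counts. Another 16 changed call or direction in some alternative, 6 of them under spike-in scaling only. Spike-in scaling reversed 4: LINC01270 (0.049) and LINC00667 (0.13) for dBRD9-A in GFP cells, LINC02987 (-0.036) for SMARCB1 with dBRD9-A, and LINC03018 in the interaction (-0.23, adjusted p = 0.0416 by edgeR). That scaling also moved the number of members called from 20 to 38 for dBRD9-A in GFP cells, from 9 to 29 for the interaction and the pairs called in the same direction from 22 to 14. The cause was not tested. Adding the limit of 1 on the log2 fold change left 16, 13, 6, 0 and 1 members for SMARCB1 in DMSO, SMARCB1 with dBRD9-A, dBRD9-A in GFP cells, dBRD9-A in SMARCB1 cells and the interaction. Without that limit, dBRD9-A in SMARCB1 cells had 6 calls by edgeR and 5 by DESeq2. Restricting to the 25 members that overlap no gene left 20, 16, 8, 2 and 4. With SMARCB1 in DMSO these were 3 higher and 17 lower, against 15 and 32 of all 60 members. For SMARCB1 with dBRD9-A they were 2 and 14, against 14 and 25. With dBRD9-A in GFP cells they were 3 and 5, against 5 and 15. Most rises with SMARCB1 were thus in members that overlap another gene, where reads may be mixed. A mean limit of 20 counts, with 106 members, gave 59 for SMARCB1 with dBRD9-A. Fitting only the groups compared gave 2 for dBRD9-A in SMARCB1 cells; it was not run for the interaction, which needs all groups. Leaving out each library in turn gave 43 to 48, 36 to 40, 18 to 22, 2 to 6 and 6 to 9 members in the same order of comparisons, and 16 to 22 pairs. With the replicate number as a block the counts were 48, 38, 20, 4 and 9 members and 21 pairs. Same-numbered libraries of different groups deviated from their group means with correlations of -0.0559 to 0.0611. For differently numbered libraries the range was -0.0535 to 0.074. Such values cannot show whether same-numbered samples shared a culture or a preparation. By DESeq2 the counts were 45, 35, 19, 5 and 8. Low counts limit LINC02898 and LINC00472 in SMARCB1 cells, where a change with dBRD9-A was not detectable at this depth.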

Other observations

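Among 50 listed long non-coding RNAs with other names, 39 were tested. With SMARCB1 in DMSO 8 of them rose and 17 fell by edgeR's test, 64.1% in all, close to the 65% of all genes tested. Under spike-in scaling, an alternative chosen after seeing the data, 13 were higher and 9 lower. Among all genes 43.4% were higher and 16.4% lower under that scaling. UCA1, a long non-coding RNA known from bladder cancer, was at 15.3 ± 0.307 CPM (SD, n = 3) in GFP cells and 238 ± 7.14 CPM in SMARCB1 cells (log2 fold change 3.96 ± 0.04, SE). The imprinted H19 went from 5.30 ± 0.381 to 30.8 ± 0.817 CPM (2.53 ± 0.08, SE). GATA6-AS1 (5.01 ± 0.54) and HAND2-AS1 (1.0 ± 0.38) also rose, both from levels under 0.2 CPM. The largest falls were those of EPB41L4A-AS1 (-0.84 ± 0.06), CRNDE (-0.82 ± 0.08), MIR17HG (-0.78 ± 0.08), the host of the miR-17-92 cluster, and SNHG15 (-0.65 ± 0.06).

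With dBRD9-A 9 of the 39 (23.1%) were called in GFP cells, 1 higher and 8 lower, where 15.9% of all genes were called. But under spike-in scaling 31 were called there and all were higher, where 71.8% of all genes were called and 70.4% were higher. In SMARCB1 cells 2 were called (5.13%, against 1.93% of all genes), both lower, and these were H19 and UCA1. Under spike-in scaling 5 were called in SMARCB1 cells, all lower, where 5.54% of all genes were called and 5.3% were lower. There, with the degrader, H19 was at 15.5 ± 0.556 CPM and UCA1 at 202 ± 1.98 CPM. On the log2 scale H19 fell by 0.99 ± 0.07 (adjusted p = 1.14e-07 by edgeR) and UCA1 fell by 0.24 ± 0.03 (adjusted p = 0.00052 by edgeR). Under spike-in scaling the values were -1.13 for H19 and -0.38 for UCA1. The list was chosen with earlier results known.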
